A study of Mus musculus with 16 samples.

Results

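The receptors described here were the 8 Toll-like receptors with measured values in knee joint cells of the mouse, Tlr2, Tlr3, Tlr4, Tlr6, Tlr7, Tlr8, Tlr9 and Tlr13, together with Myd88, the adaptor protein through which most of them signal. They were chosen by name from a list of 10 genes, without use of their values, out of 13733 genes in the table. Of the 10, 9 had values and all 9 passed the filter on low values, at least 1 CPM (the normalised read count, scaled to library size) in at least 4 of the 16 libraries, which 13173 genes passed. Tlr1 was not analysed here. Bulk RNA-seq was carried out on cells from right knee joints of C57BL/6 wildtype (WT) mice and of Trem2 KO mice purchased from Jackson Laboratory (Trem2-/- below), which lack the myeloid receptor Trem2 in all tissues. Joints were either uninjured (D0) or had been injured 7 days earlier (D7) at 10 weeks of age by a single tibial compression that ruptures the anterior cruciate ligament, which gave 4 groups of 4 libraries, WT at D0 and D7 and Trem2-/- at D0 and D7. The labels give an age of 16 weeks for every mouse, which differs from an injury at 10 weeks followed for 7 days. The study's methods describe enzymatic digestion of joints to single cells, while the labels' extraction text describes homogenized joints of another mouse model, so how the RNA was obtained remains uncertain. For the bulk cells the study's methods refer to its single-cell protocol, which includes a separation of leukocytes with CD45 beads. Which fraction was sequenced in bulk was not stated, so whether the cells were enriched for leukocytes is unknown.

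Toll-like receptors are germline-encoded sensors of microbial molecules and of molecules set free by damaged tissue. Tlr2, Tlr4 and Tlr6 act at the cell surface, Tlr2 in pairs with Tlr6 or Tlr1 for lipopeptides and Tlr4 for lipopolysaccharide, while Tlr3, Tlr7, Tlr8, Tlr9 and Tlr13 sit in endosomes and sense nucleic acids. All but Tlr3 signal through Myd88 to NF-kappaB and to inflammatory cytokines, whereas Tlr3 uses the adaptor Ticam1. In joints, several matrix fragments and alarmins are known as ligands of Tlr2 and Tlr4.

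In annotation of GRCm38 (GENCODE M21), which is the mm10 build named by the study, Tlr7 and Tlr8 are neighbours on the minus strand of chromosome X, at chrX:167304929-167330558 and chrX:167242696-167264329. Tlr13 lies elsewhere on X, at chrX:106143204-106160493 on the plus strand. The other members are at chr3:83836272-83841767 for Tlr2 (minus), chr8:45395665-45411080 for Tlr3 (minus), chr4:66827584-66930284 for Tlr4 (plus), chr5:64952031-64960097 for Tlr6 (minus), chr9:106222598-106226883 for Tlr9 (plus) and chr9:119335934-119341411 for Myd88 (minus). Tlr6 shared 340 of its 3677 stretches of 75 exonic bases (9.25%) with its paralog Tlr1, so part of its reads could belong to that gene. Exons of Tlr3 and Myd88 overlap antisense exons of Gm45542 and Acaa1a, which touch 4.28% and 5.68% of their 75-base stretches. The overlap covers 7.32% and 11.3% of their exon bases. The strand setting of the read counting was not stated. How many reads of Tlr3 and Myd88 came from those genes is thus unknown, and these percentages do not limit it. The other 6 members shared no such stretch with any other annotated gene.

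Promoters from RefSeq (build GRCm38.p6, 250 bases before to 50 after each annotated start) were found for 7 of the 9 members, and 4 are shown. Tlr13, Tlr9 and Myd88 are shown as members with a match to a motif that was searched. Tlr3 is shown as one without such a match and as the member that was higher after injury. All 4 were chosen with their values known. They show no relation of motif to direction, since Tlr2 and Tlr8 also held no such match and were called lower after injury in Trem2-/- joints. Capitals mark matches to GAGGAAG (the core of sites bound by the myeloid factor PU.1) in the first pair, and in Myd88 a match to the interferon-stimulated response element in a short form (GAAA, then NN, then GAAA, where N is any base). Both strands were searched. The windows are chrX:106143025-106143324 for Tlr13, chr9:106222348-106222647 for Tlr9, chr9:119339969-119340268 for Myd88 (minus strand) and chr8:45410331-45410630 for Tlr3 (minus strand), each written in the direction of its gene.
Tlr13: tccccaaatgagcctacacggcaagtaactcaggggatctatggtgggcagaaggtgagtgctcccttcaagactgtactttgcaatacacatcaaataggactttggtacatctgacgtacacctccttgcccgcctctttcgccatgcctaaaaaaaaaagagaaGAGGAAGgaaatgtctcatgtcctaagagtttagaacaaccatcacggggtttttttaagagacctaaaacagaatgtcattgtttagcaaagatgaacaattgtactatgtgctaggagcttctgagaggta
Tlr9: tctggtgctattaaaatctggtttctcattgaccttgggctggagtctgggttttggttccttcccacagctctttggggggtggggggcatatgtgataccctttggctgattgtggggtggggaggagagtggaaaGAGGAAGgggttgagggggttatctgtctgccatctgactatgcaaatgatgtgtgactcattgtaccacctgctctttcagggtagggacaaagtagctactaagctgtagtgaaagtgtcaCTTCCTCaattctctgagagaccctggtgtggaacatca
Myd88: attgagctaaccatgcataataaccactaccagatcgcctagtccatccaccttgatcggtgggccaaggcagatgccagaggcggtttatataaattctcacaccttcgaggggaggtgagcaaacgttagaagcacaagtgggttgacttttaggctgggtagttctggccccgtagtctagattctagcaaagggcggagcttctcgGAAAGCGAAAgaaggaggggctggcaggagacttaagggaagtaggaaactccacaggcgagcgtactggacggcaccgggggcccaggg
Tlr3: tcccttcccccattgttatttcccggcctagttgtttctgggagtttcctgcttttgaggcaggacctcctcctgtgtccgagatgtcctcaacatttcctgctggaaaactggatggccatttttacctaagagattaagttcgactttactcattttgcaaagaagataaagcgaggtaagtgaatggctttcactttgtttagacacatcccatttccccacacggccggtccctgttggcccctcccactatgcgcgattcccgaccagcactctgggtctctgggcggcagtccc
Tlr13 had 1 match to GAGGAAG, starting 83 bases before its start, and Tlr9 had 2, the first starting 112 bases before its own start and the other on the opposite strand after it, where it reads CTTCCTC. These were the 2 members of 7 with that match, which 13.6% of 32851 promoters of the same length also held. The interferon-stimulated response element was found in Myd88 and, as 2 overlapping matches, in 1 of the 2 annotated promoters of Tlr6, against 3.44% of all promoters. TGANTCA (the AP-1 site) was found in Tlr9 alone among the 7 members and in 7.81% of all promoters. An NF-kappaB consensus was found in none of the 7 and in 0.155% of all promoters. The Tlr3 window held none of the 4 motifs. These are matches of letters, not measured binding, and no match overlapped another in the windows shown.

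Libraries held between 11567073 and 32867818 reads. Every member had at least 46 reads in each library (the lowest was Tlr9) and at most 12487 (Tlr2), where 3 reads corresponded to 0.101 to 0.2502 CPM, limits that cover counting error only. Trem2 itself was 10.7 to 22.5 CPM in WT D7, 3.42 to 4.84 CPM in Trem2-/- D7, 2.51 to 5.61 CPM in WT D0 and 0.948 to 2.68 CPM in Trem2-/- D0, so its genotypes did not overlap at D7 and overlapped at D0, and some Trem2 reads remained in the knockout. Samples of 1 group were labelled as replicates without a statement that they came from separate animals, so p-values measure the spread between these libraries. Markers of other cells moved with injury: all 9 leukocyte genes were called lower in both genotypes (call rule given below), their summed level running from 3270 to 6607 CPM in WT D0, 1843 to 3945 in WT D7, 4092 to 7344 in Trem2-/- D0 and 1420 to 1832 in Trem2-/- D7. All 11 neutrophil genes were also called lower in both (sums of 15222 to 34483, 4931 to 15049, 15673 to 45974 and 4602 to 7747 CPM in the same order), whereas 7 of 10 macrophage genes were called higher in WT and 5 higher and 1 lower in Trem2-/- (334 to 486, 642 to 841, 403 to 430 and 529 to 585 CPM). No gene of these 3 lists was at 0 throughout. Their part in the results on the receptors was not tested, and in bulk RNA fewer cells of a type and less RNA per cell cannot be told apart.

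Levels of different genes were compared per kilobase of exon. In WT D0, Tlr2 stood highest at 135 ± 35.5 CPM per kb (SD, n = 4), followed by Myd88 at 44.4 ± 8.49 and Tlr13 at 28.9 ± 6.64. Tlr4 (8.53 ± 0.422 CPM per kb) and Tlr6 (7.73 ± 0.934) formed a middle pair whose ranges overlapped. Tlr7 (2.93 ± 1.14 CPM per kb), Tlr9 (2.62 ± 0.749), Tlr8 (2.03 ± 1.02) and Tlr3 (1.81 ± 0.893) were lowest, and each of these overlapped the next. The surface receptor Tlr2 was thus the highest member and the endosomal receptors other than Tlr13 were the lowest, with no overlap between Tlr6 and Tlr7. In Trem2-/- D0 the first 6 places were the same, but Myd88 (47.7 ± 3.74 CPM per kb) and Tlr13 (39.6 ± 8.78) overlapped and Tlr3 (1.63 ± 0.393) was separately lowest. In WT D7 the ranges of neighbours overlapped except between Tlr2 (95.0 ± 34.7 CPM per kb) and Myd88 (30.1 ± 1.27), and between Tlr7 (3.37 ± 0.193) and Tlr3 (2.31 ± 0.280). In Trem2-/- D7 the order became Tlr2 (60.9 ± 6.87 CPM per kb), Myd88 (28.3 ± 1.90), Tlr13 (11.7 ± 1.90), Tlr4 (6.57 ± 0.402), Tlr6 (3.45 ± 0.520), Tlr3 (2.55 ± 0.202), Tlr7 (2.24 ± 0.213), Tlr8 (1.21 ± 0.147) and Tlr9 (1.08 ± 0.240), where Tlr3 overlapped Tlr7 and Tlr8 overlapped Tlr9 while all other neighbours were separate.

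**Figure D1:**
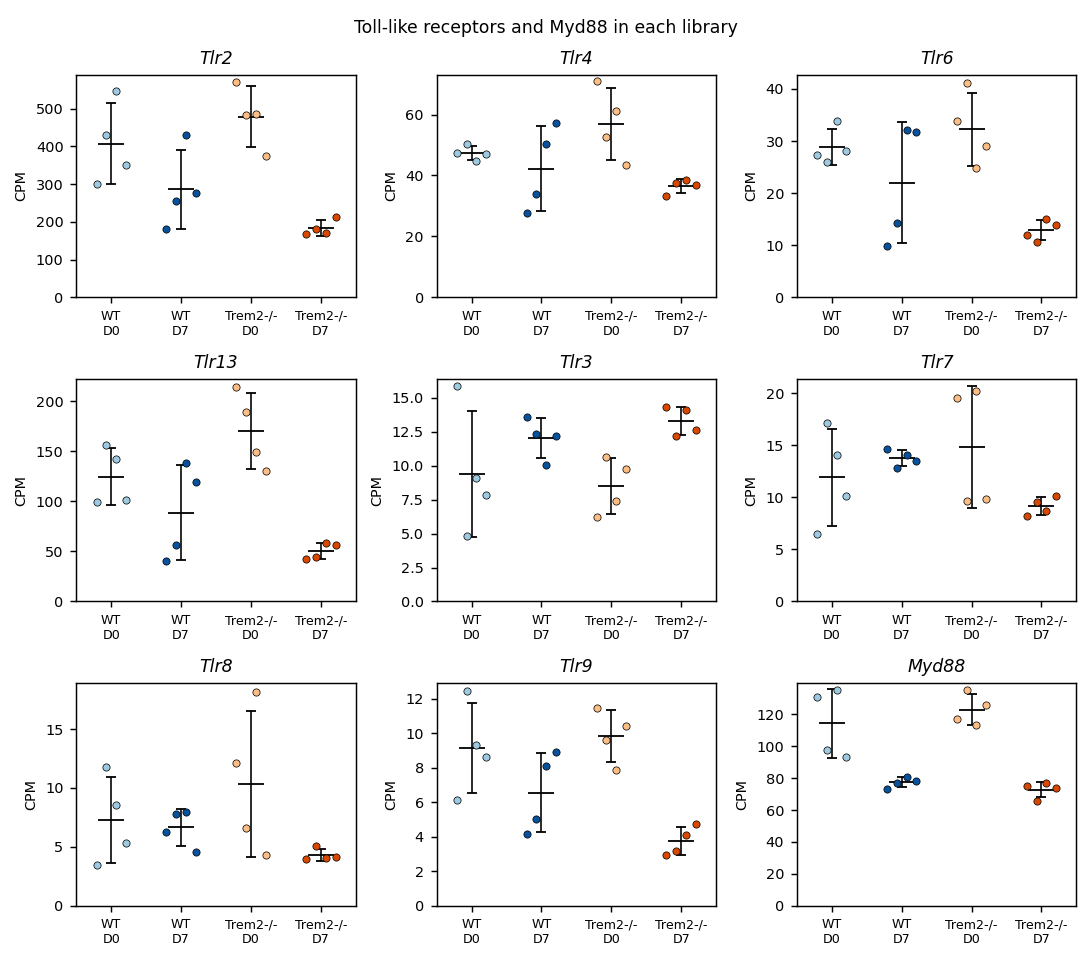
CPM (vertical axes, each starting at 0) of the 8 receptors and Myd88 in the 4 groups, with 1 point per library in replicate order and bars for the mean and SD of 4 libraries. The 4 Trem2-/- D7 libraries lie close together for every member, while WT D7 replicates 3 and 4 stand above replicates 1 and 2 for Tlr4, Tlr6, Tlr9 and Tlr13.

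The injury response of the receptors was asked first in WT mice, where only Myd88 and Tlr2 were called. A gene was called where limma gave p under 0.05 without adjustment and a fold change, in either direction, more than 25% above 1. Benjamini-Hochberg adjusted p-values over all 13173 genes are given beside the calls. Of the 9 members, 0 were called higher and 2 lower, while 19.3% of all genes were called higher and 18.2% lower. With adjustment 1 member passed, against 28.5% of all genes, and 1 member had groups that did not overlap, against 22.2% of all genes. The members' median log2 fold change was -0.44, and the median of all genes was -0.04.

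Myd88 was 131, 97.5, 135 and 93.6 CPM in the 4 WT D0 libraries and 73.2, 77.1, 81.0 and 78.4 CPM in WT D7. Every injured library was below every uninjured one, and the spread at D7 was small (77.4 ± 3.27 CPM, SD, n = 4). The fall was 0.54 on the log2(CPM + 1) scale (log2 fold change -0.54, SE 0.12, limma adjusted p = 0.00487), and it was called under every alternative run.

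Tlr2 was 301, 432, 546 and 351 CPM in WT D0 and 182, 255, 430 and 278 CPM in WT D7. The groups overlapped, since WT D7 replicate 3 was as high as the middle of the uninjured range. The log2 fold change was -0.54 (SE 0.23, limma unadjusted p = 0.0318, adjusted p = 0.0852).

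The other members did not pass in WT. Tlr13, a sensor of bacterial ribosomal RNA, was 98.9, 156, 142 and 102 CPM in WT D0 and 40.7, 56.3, 138 and 119 CPM in WT D7 (log2 fold change -0.63, SE 0.31, limma adjusted p = 0.135). Tlr6 was 27.3, 26.0, 33.9 and 28.2 CPM in WT D0 and 9.75, 14.3, 32.0 and 31.8 CPM in WT D7 (log2 fold change -0.53, SE 0.29, limma adjusted p = 0.174). For both, WT D7 replicates 1 and 2 lay below all uninjured libraries and replicates 3 and 4 lay within or near the uninjured range. Tlr4 and Tlr9 showed the same split. Tlr4 was 47.3, 50.5, 44.8 and 47.1 CPM in WT D0, a narrow range, and 27.6, 33.9, 50.3 and 57.2 CPM in WT D7. Tlr9, which senses unmethylated CpG DNA, was 6.09, 12.4, 9.30 and 8.61 CPM in WT D0 and 4.18, 5.04, 8.07 and 8.91 CPM in WT D7. The summed neutrophil markers of WT D7 replicates 1 to 4 were 4931, 8468, 15049 and 8049 CPM, so the highest of these libraries was also the highest for Tlr13, whereas replicate 4 was above replicate 2 for Tlr13 and Tlr6 and below it for the neutrophil genes. The leukocyte sums of the same libraries were 1843, 2455, 3945 and 2694 CPM, and the part of these cells in the split was not tested.

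Single libraries decided how many members were called in WT. Without WT D7 replicate 3, or without replicate 4, 5 members were called (Tlr2, Tlr6, Tlr9, Tlr13 and Myd88, all lower). Without WT D0 replicate 1, which was the highest of its group for Tlr3 and the lowest for Tlr7, Tlr8 and Tlr9, 5 were called as well, with Tlr3 higher in place of Tlr6. Without WT D7 replicate 1 or 2, or WT D0 replicate 2 or 3, Myd88 alone was called.

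The single-stranded RNA sensors Tlr7 and Tlr8, and the double-stranded RNA sensor Tlr3, showed no call in WT. Tlr7 was 6.45, 17.2, 14.03 and 10.1 CPM in WT D0 and 14.6, 12.8, 14.1 and 13.5 CPM in WT D7 (log2 fold change 0.26, SE 0.26, limma adjusted p = 0.457). The uninjured libraries spread widely (coefficient of variation 39.0%) and the injured ones little (5.72%). Tlr8 was 3.47, 11.8, 8.56 and 5.34 CPM in WT D0 and 6.27, 7.76, 7.997 and 4.57 CPM in WT D7 (log2 fold change -0.03, SE 0.36, limma adjusted p = 0.962). Tlr3 was 15.8, 4.83, 9.09 and 7.84 CPM in WT D0 and 13.6, 12.3, 10.1 and 12.2 CPM in WT D7 (log2 fold change 0.42, SE 0.24, limma adjusted p = 0.192). Apart from WT D0 replicate 1, every injured library exceeded every uninjured one for Tlr3.

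In Trem2-/- mice all 9 members were called after injury, 8 lower and Tlr3 higher. Among all genes, 27.9% were called lower and 26.5% higher. After adjustment 8 members passed (Tlr7 did not, limma adjusted p = 0.0781), against 53.2% of all genes, and 7 had groups that did not overlap, against 52.4% of all genes. The members' median log2 fold change was -0.92, against -0.04 for all genes, and the members ranged from -1.72 for Tlr13 to 0.62 for Tlr3.

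Tlr13 changed most. It was 214, 189, 149 and 130 CPM in Trem2-/- D0 and 42.7, 44.4, 58.3 and 56.8 CPM in Trem2-/- D7. Every uninjured library was over every injured one by a wide gap, and the fold change was 0.303 (log2 fold change -1.72, SE 0.31, limma adjusted p = 0.000374).

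Tlr2 was 570, 483, 487 and 374 CPM in Trem2-/- D0 and 169, 180, 171 and 214 CPM in Trem2-/- D7 (log2 fold change -1.37, SE 0.23, limma adjusted p = 0.000202). Tlr6, its partner, was 33.8, 41.2, 24.8 and 29.1 CPM before injury and 11.9, 10.7, 15.0 and 13.8 CPM after it (log2 fold change -1.25, SE 0.29, limma adjusted p = 0.00231). Neither gene's groups overlapped, and the lowest uninjured library was well above the highest injured one in both. Tlr9 was 11.4, 9.60, 7.87 and 10.4 CPM in Trem2-/- D0 and 2.96, 3.17, 4.09 and 4.75 CPM in Trem2-/- D7, again without overlap (log2 fold change -1.20, SE 0.23, limma adjusted p = 0.000510).

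Tlr4 and Myd88 fell less but as separately. Tlr4 was 71.0, 52.6, 61.1 and 43.3 CPM in Trem2-/- D0 and 33.3, 37.5, 38.5 and 36.8 CPM in Trem2-/- D7 (log2 fold change -0.61, SE 0.19, limma adjusted p = 0.0142). Myd88 was 117, 135, 114 and 126 CPM before and 74.95, 65.7, 76.9 and 73.8 CPM after injury (log2 fold change -0.75, SE 0.12, limma adjusted p = 0.000123). These 6 members, Tlr2, Tlr4, Tlr6, Tlr9, Tlr13 and Myd88, were called lower under every alternative fit and with any library left out.

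Of the remaining 3 members, the calls of Tlr3 and Tlr8 rested on single uninjured libraries. That of Tlr7 was near the limit of a call and was lost in many refits, as given below. Tlr7 was 19.6, 9.67, 20.2 and 9.89 CPM in Trem2-/- D0 and 8.16, 9.58, 8.68 and 10.1 CPM in Trem2-/- D7 (log2 fold change -0.57, SE 0.26, limma unadjusted p = 0.0453). Tlr8 was 12.2, 6.57, 18.2 and 4.33 CPM in Trem2-/- D0 and 3.93, 5.10, 4.09 and 4.17 CPM in Trem2-/- D7 (log2 fold change -0.92, SE 0.36, limma adjusted p = 0.0407). Both genes were high in uninjured replicates 1 and 3 and lower in replicates 2 and 4. For Tlr7 both of the lower libraries overlapped the injured group. For Tlr8 replicate 4 alone did, while replicate 2 (6.57 CPM) was above every injured library. The summed monocyte markers of uninjured replicates 1 to 4 were 411, 230, 535 and 215 CPM, also high in replicates 1 and 3, and their part in the result was not tested. Tlr3 was 6.18, 10.6, 7.396 and 9.73 CPM in Trem2-/- D0 and 14.3, 12.2, 14.1 and 12.6 CPM in Trem2-/- D7, with every injured library higher (log2 fold change 0.62, SE 0.24, limma adjusted p = 0.0438). Without Trem2-/- D0 replicate 1, or without replicate 3, Tlr3, Tlr7 and Tlr8 were not called and the other 6 members were. Tlr7 lost its call in 14 of its 25 refits, 3 of the 9 alternative fits and 11 of the 16 with 1 library left out.

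**Figure D2:**
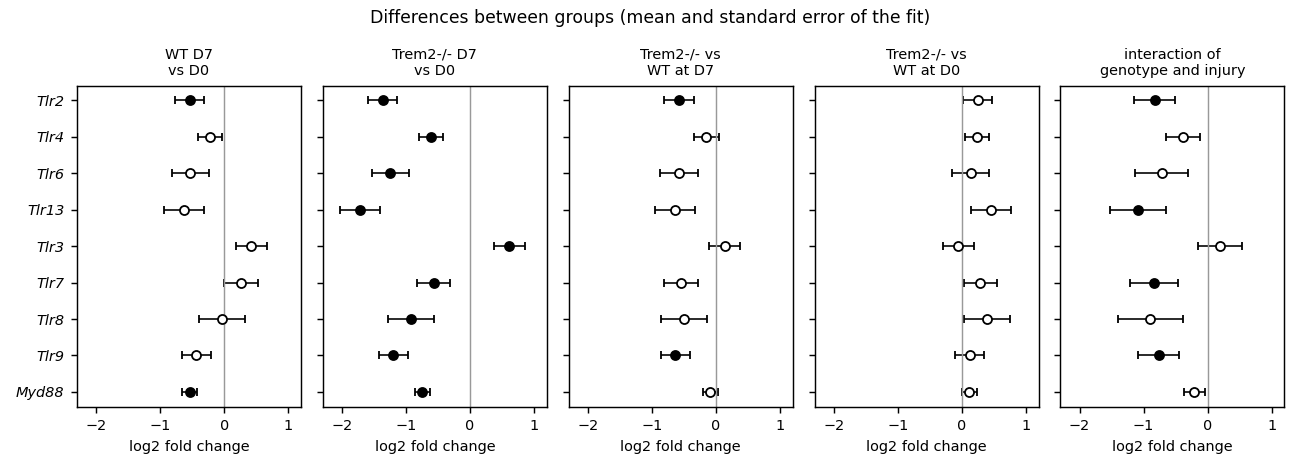
Log2 fold change on the log2(CPM + 1) scale (horizontal axes) of each member in the 4 comparisons and the interaction, with bars for the SE of the limma fit and filled points for the called members. After injury the Trem2-/- points lie left of 0 for all members but Tlr3, from -1.72 to 0.62, and in WT from -0.63 to 0.42.

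Whether the injury response differed between genotypes was tested by the interaction, in which 0 members were called higher and 4 lower, against 2.77% and 5.02% of all genes. The called members were Tlr13 (log2 difference of fold changes -1.09, SE 0.44, limma unadjusted p = 0.0257), Tlr7 (-0.84, SE 0.37, unadjusted p = 0.0391), Tlr2 (-0.83, SE 0.32, unadjusted p = 0.0216) and Tlr9 (-0.76, SE 0.32, unadjusted p = 0.0310). A negative value means that Trem2-/- fell further, or rose less, than WT. None passed adjustment (limma adjusted p from 0.579 to 0.903 over the 9 members), as for 0% of all genes. The estimate was negative for 8 of 9 members, with a median of -0.76 against 0.01 for all genes, and Tlr3 was the exception (0.19, SE 0.34). Without WT D7 replicate 3 or 4, or Trem2-/- D0 replicate 1, Tlr2 was the member left, and without WT D0 replicate 1 or Trem2-/- D7 replicate 1, Tlr2 and Tlr13 were left. Tlr2 kept its unadjusted call with any library left out. The leukocyte markers moved the same way, 8 of 9 being called lower in the interaction with a median of -0.97, and their part was not tested.

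In injured joints, Trem2-/- libraries were compared with WT libraries directly. Of the 9 members, 0 were called higher and 2 lower, Tlr9 and Tlr2, against 1.18% and 4.53% of all genes. No member passed adjustment (limma adjusted p from 0.563 to 0.933, with 2 members at an unadjusted p under 0.05), as for 0% of all genes. The mean was lower in Trem2-/- for 8 of 9 members and the members' median was -0.54 on the log2 scale (0.01 over all genes). The comparison shares its D7 libraries with the injury contrasts and is no independent support for them.

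Tlr9 was 4.18, 5.04, 8.07 and 8.91 CPM in WT D7 against 2.96, 3.17, 4.09 and 4.75 CPM in Trem2-/- D7 (log2 fold change -0.64, SE 0.23, limma adjusted p = 0.563). Tlr2 was 182 to 430 CPM against 169 to 214 CPM (log2 fold change -0.58, SE 0.23, limma adjusted p = 0.615). Both pairs of groups overlapped at the lower WT libraries. Tlr7 was the member whose groups did not overlap, at 14.6, 12.8, 14.1 and 13.5 CPM in WT D7 against 8.16, 9.58, 8.68 and 10.1 CPM in Trem2-/- D7, where 8.33% of all genes had groups that did not overlap. Its fold change was 0.685 (log2 fold change -0.54, SE 0.26, limma unadjusted p = 0.0546), and it was not called in this fit. With limma and voom on the recovered reads, the method the study names, Tlr7 was called (log2 fold change -0.62, voom unadjusted p = 0.0464, adjusted p = 0.627). The edgeR count test on the recovered reads called it as well (unadjusted p = 0.0493, adjusted p = 0.614). The study showed Tlr7 among its own genes for these mice, so this difference is not independent evidence. In a fit of the D7 libraries alone, Tlr7 was called (limma unadjusted p = 0.000342, adjusted p = 0.0586), and the count rose from 2 to 4 with Tlr8.

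Tlr13 (log2 fold change -0.64, SE 0.31, limma unadjusted p = 0.0582), Tlr6 (-0.58, SE 0.29, unadjusted p = 0.0653) and Tlr8 (-0.50, SE 0.36, unadjusted p = 0.179) had the same sign without a call. Tlr13 and Tlr6 were called with the edgeR count test on reads recovered from the values (5 members in all) and without WT D7 replicate 1 or 2 (4 members). Without WT D7 replicate 3 or Trem2-/- D7 replicate 1 or 3 Tlr9 alone was called and without WT D7 replicate 4 Tlr2 alone. Tlr4 (-0.15, SE 0.19), Myd88 (-0.09, SE 0.12) and Tlr3 (0.14, SE 0.24) had the smallest differences, and Myd88 ran from 65.7 to 81.0 CPM over all 8 injured libraries. In the same comparison 8 of 9 leukocyte genes, 4 of 10 macrophage genes, 1 of 11 neutrophil genes and 5 of 6 B cell genes were called lower. Of 6 genes tested of plasmacytoid dendritic cells, which are known for high Tlr7 and Tlr9, 3 were called lower (Spib, Siglech and Ccr9). The median of the list was -0.72, and 4 of the 6 had a lower mean. In the interaction 2 were called lower (Spib and Siglech). The summed level of this list was 269 to 304 CPM in WT D7 and 283 to 323 CPM in Trem2-/- D7, so the sum did not fall. A sum weighs most the genes of the highest level and does not show how the others ran. After injury in Trem2-/- the list was divided, with Tcf4 called higher and Spib, Siglech, Ccr9 and Cox6a2 called lower. The part of all these cells in the members' values was not tested.

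Before injury no member was called in Trem2-/- against WT. Of all genes, 0.782% were called higher, 1.37% lower, 0% passed adjustment and 0.979% had groups that did not overlap, whereas all 9 members overlapped (limma adjusted p = 1.00 for each, 0 at an unadjusted p under 0.05, and 0 also with edgeR). The mean was higher in Trem2-/- for 8 of 9 members, from 0.12 for Myd88 to 0.45 for Tlr13 on the log2 scale, and lower for Tlr3 (-0.05, SE 0.24). The SE of these differences ran from 0.12 for Myd88 to 0.36 for Tlr8.

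Because leukocyte genes changed with injury, each member was also expressed relative to 8 genes used across leukocytes (Cd53, Laptm5, Coro1a, Arhgdib, Rac2, Cd37, Lcp1 and Ptpn6) in the same library, as a difference of log2 values tested with a two-sided exact permutation test over the 70 assignments of 8 libraries. The smallest p this design allows is 0.0286, and no test passed adjustment over the 36 tests (lowest adjusted p = 0.0735). The mean log2 level of the 8 genes was itself 8.65 ± 0.530 in WT D0, 7.65 ± 0.417 in WT D7, 8.91 ± 0.428 in Trem2-/- D0 and 6.95 ± 0.172 in Trem2-/- D7 (SD, n = 4).

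Against the leukocyte genes no member was lower after injury by this test, and against macrophage genes the direction turned, as given below. In WT, 4 of 9 members were higher at the smallest p, as were 23% of all genes. These were Tlr7 (difference 1.26), Tlr8 (0.97), Tlr9 (0.56) and Tlr2 (0.46, each with exact permutation p = 0.0286). The median difference of all genes was 0.95, above those of Tlr9 and Tlr2. In Trem2-/-, where the reference itself fell by 1.96 on the log2 scale, 8 of 9 members were higher and so were 92.2% of all genes. The largest differences were 2.57 for Tlr3, 1.39 for Tlr7, 1.35 for Tlr4 and 1.21 for Myd88, while the median of all genes was 1.92. Tlr13 was the member that did not pass, at -1.51 ± 0.373 in Trem2-/- D0 and -1.28 ± 0.0977 in Trem2-/- D7 (difference 0.24, exact permutation p = 0.286).

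Between genotypes at D7, Tlr3 (difference 0.84) and Myd88 (0.61) were higher in Trem2-/- relative to the leukocyte genes (both exact permutation p = 0.0286), 2 of 9 members against 43% of all genes. The median difference of all genes was 0.71, above that of Myd88. For the other 7 members the difference ran from 0.06 to 0.55 and did not pass. Tlr7, whose CPM groups did not overlap, was -3.77 ± 0.437 in WT D7 and -3.61 ± 0.186 in Trem2-/- D7 (difference 0.16, exact permutation p = 0.571). At D0, 0 of 9 members and 0.00759% of all genes were higher. With 10 macrophage genes as the reference in place of the leukocyte genes, the direction after injury was the opposite. In WT, 8 of 9 members were then lower (differences of -1.80 for Tlr13 to -0.91 for Tlr7) and none higher, and in Trem2-/- 8 of 9 were lower (-2.49 for Tlr13 to -1.34 for Tlr7) and none higher, Tlr3 being the member that did not pass in either. Each passing member had an exact permutation p = 0.0286 (two-sided, 4 libraries a group), or 0.0605 adjusted over all these comparisons. The mean log2 level of the macrophage genes was itself higher after injury, at 5.85 against 4.68 in WT and 5.43 against 4.67 in Trem2-/-. The median log2 fold change of all genes was -0.04 in both genotypes. The share of all genes lower against this reference was not counted, so these counts cannot be told apart from the shift of the reference. Whether the receptors were higher or lower relative to other cells thus turned on the cells chosen. Between genotypes at D7, Tlr3 was the 1 member higher against the macrophage genes (0.56). With 1 library left out the leukocyte reference gave 2 (without WT D7 replicate 4) to 6 members (without WT D0 replicate 1) higher in WT and 4 (whichever D7 library) to 7 (whichever D0 library) in Trem2-/-, and whichever Trem2-/- D7 library was left out, neither Tlr3 nor Myd88 passed between genotypes at D7.

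**Figure D3:**
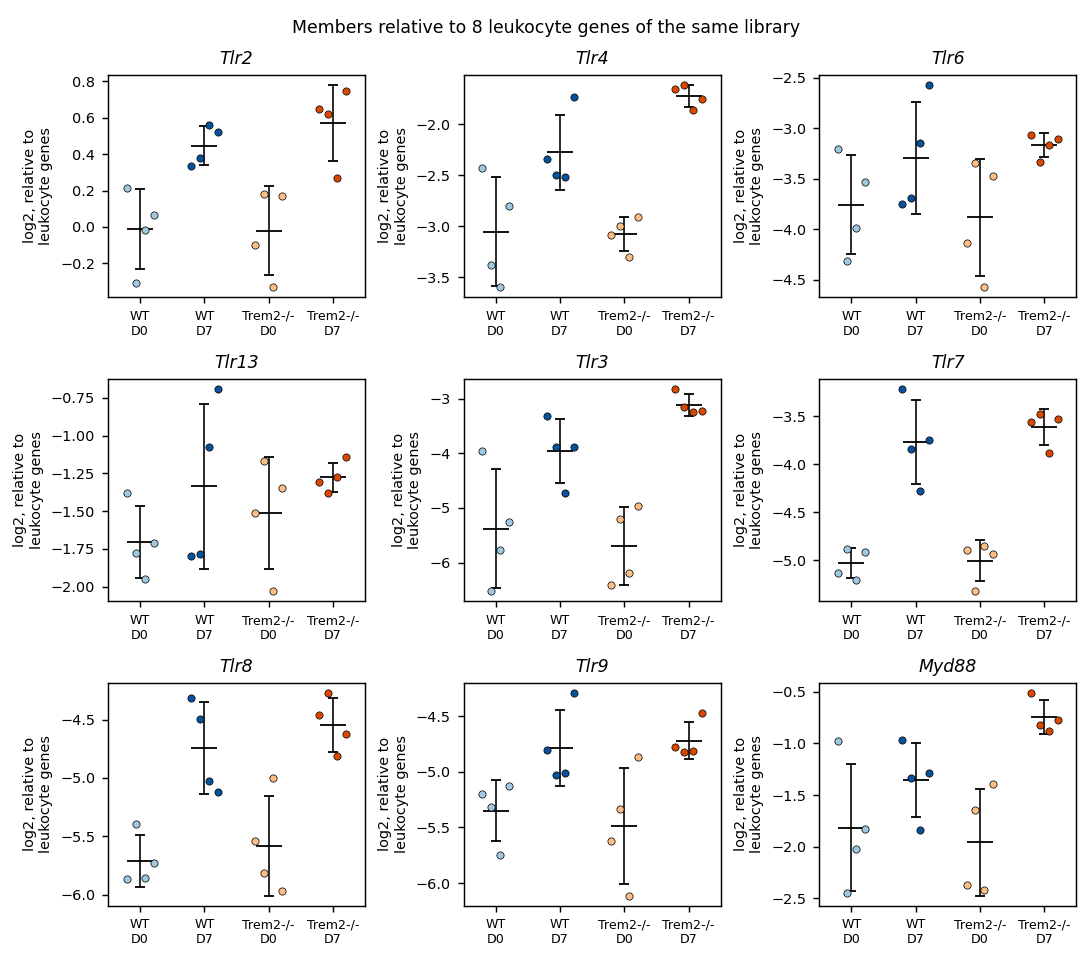
Log2(CPM + 1) of each member minus the mean log2(CPM + 1) of 8 leukocyte genes in the same library (vertical axes) by group, with 1 point per library and bars for the mean and SD of 4 libraries. Tlr3 has the largest difference, from -5.69 in Trem2-/- D0 to -3.12 in Trem2-/- D7, and Tlr13 the smallest, from -1.51 to -1.28.

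Members were then compared by how they varied over the 16 libraries, on the log2(CPM + 1) scale. These correlations are descriptions over libraries that share the groups' differences and the same leukocyte content, so r of the deviations from group means is given as well. Of the 36 pairs of members, all 28 without Tlr3 had a positive r and all 8 with Tlr3 a negative one. Tlr13 went with Tlr6 (r = 0.95, 0.89 within groups), Tlr2 (0.95, 0.83), Tlr9 (0.94, 0.84) and Tlr4 (0.90, 0.84). Tlr7 went with its neighbour Tlr8 (0.89, 0.90 within groups) and not with Tlr6 (0.24, -0.11). Tlr3 ran against Tlr7 (-0.72, -0.84 within groups) and Tlr8 (-0.77, -0.74). Within groups Myd88 followed none of the surface receptors closely (0.17 with Tlr2, -0.06 with Tlr4, 0.40 with Tlr6) and was nearest to Tlr3 (0.66).

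**Figure D4:**
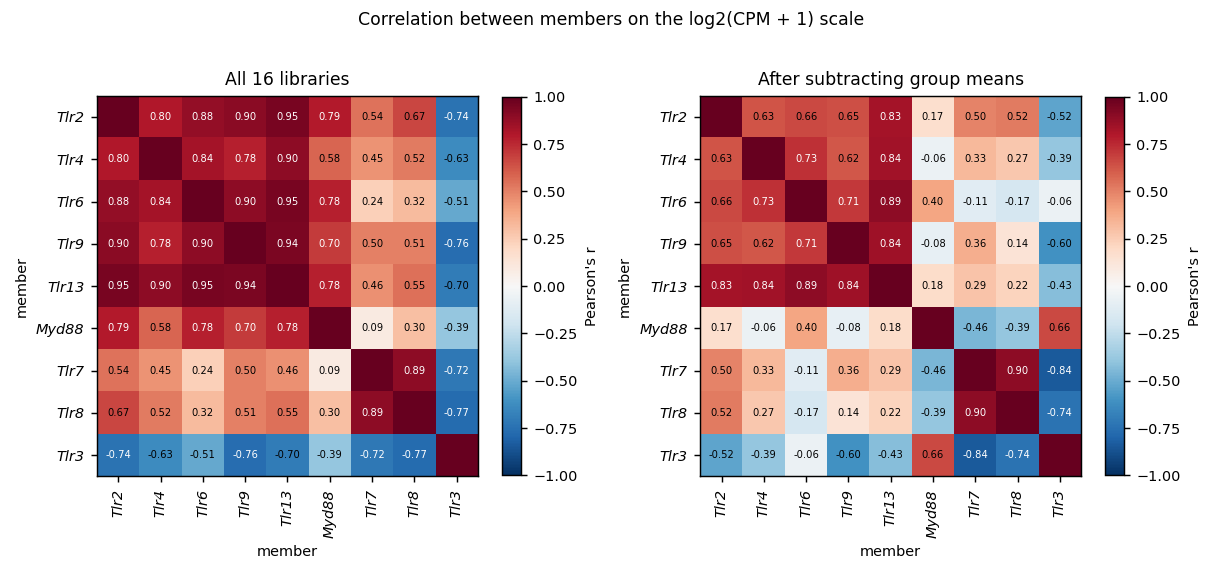
Pearson's r between members over 16 libraries on the log2(CPM + 1) scale, for the values (left) and after subtracting group means (right), with the color scale from -1 to 1. Tlr2, Tlr4, Tlr6, Tlr9 and Tlr13 form a block with r of 0.62 or more within groups, Tlr7 and Tlr8 a pair at 0.90, and Tlr3 is negative with all other members on the left and with all but Myd88 on the right.

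The means of marker lists followed this division only in part. Within groups Tlr8 and Tlr7 followed the 4 monocyte genes with values (r = 0.94 and 0.90), Tlr2 the leukocyte (0.87) and neutrophil genes (0.84), and Tlr13 these lists less closely (0.72 and 0.71). Tlr3 went with endothelial genes (0.73) and against monocyte (-0.72) and leukocyte genes (-0.71). No member followed the macrophage genes, with r from -0.45 for Tlr4 to 0.32 for Myd88.

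Over all 16 libraries, the genes most like each member were the following. Tlr2 was most like C5ar1, Cd53 and Fcer1g (r = 0.99, 0.99 and 0.98). Tlr13 was most like Il1f9, Cxcr2 and Arg2 (0.99, 0.98 and 0.98). Tlr6 was most like Ankrd33b, Pik3ap1 and Sema4d (0.98 each). Tlr9 was most like Pias1, Syk and N4bp2l1 (0.96, 0.96 and 0.95). Tlr4 was most like Tbc1d15, Tnfrsf26 and Rap1gap2 (0.93, 0.92 and 0.92). Tlr7 was most like Ckap2l, Cep55 and Arhgap11a (0.93, 0.92 and 0.91). Tlr8 was most like Kif23, Ms4a6b and Top2a (0.94, 0.93 and 0.93). Tlr3 was most like Map4, Tspan17 and Mapre3 (0.95, 0.95 and 0.94). Myd88 was most like Ppp1r18, Timp4 and Ldhb, with r of 0.96 each over the groups and 0.73 to 0.74 within them.

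The rest of the pathway was described by 8 lists that hold 109 genes, of which 100 were tested. In WT D7 against D0, 14 of them were called higher and 33 lower, and in Trem2-/- 15 higher and 55 lower (median log2 fold change -0.25 and -0.54). In Trem2-/- against WT at D7, 0 were called higher and 11 lower, at D0 3 higher and 1 lower, and in the interaction 2 higher and 15 lower. The percentages for all genes in each comparison are those given above.

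Of 14 endogenous ligands tested, 6 were called higher in both genotypes after injury (Fn1, Bgn, Tnc, Lum, Vcan and Has2, which are matrix genes or make hyaluronan), while 5 in WT and 6 in Trem2-/- were called lower, among them the neutrophil alarmins S100a8 and S100a9. Tnc, a matrix glycoprotein that Tlr4 can sense, was 466 ± 563 CPM in WT D0 and 1900 ± 483 CPM in WT D7, and 121 ± 28.8 and 2334 ± 46.7 CPM in Trem2-/- (SD, n = 4; log2 fold change 2.76 and 4.29, limma adjusted p = 0.00366 and 3.9e-05). Bgn (biglycan, a small proteoglycan) changed by 2.40 in WT and 3.05 in Trem2-/- on the log2 scale, and Lum (lumican) by 3.25 in Trem2-/-. At D0 Lum was called lower in Trem2-/- (208 ± 112 CPM) than in WT (560 ± 498 CPM, SD, n = 4, limma unadjusted p = 0.0303). It was called higher in the interaction (1.56, limma unadjusted p = 0.0412), and neither call passed adjustment. All 4 chondrocyte genes were also called higher in both genotypes (summed 647 to 11786 CPM in WT D0 and 27036 to 69172 in WT D7). Of 6 fibroblast genes, 4 were called higher in WT and 5 in Trem2-/-, with sums between 11310 and 54418 CPM in WT D0, 84006 and 121259 in WT D7, 8286 and 17927 in Trem2-/- D0, and 104311 and 150447 in Trem2-/- D7. The part of these cells in the values of the ligands and of the members was not tested.

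Among 15 coreceptors, chaperones and trafficking genes, 5 were called higher and 1 lower in WT, and 6 higher and 4 lower in Trem2-/-. The proteases Ctsk (log2 fold change 2.78 in Trem2-/- and 1.44 in WT) and Lgmn (1.63 and 1.37) rose in both genotypes. Cd14, the coreceptor that hands lipopolysaccharide to Tlr4, fell in Trem2-/- from 943 ± 297 to 427 ± 76.8 CPM (log2 fold change -1.10, limma adjusted p = 0.00844). Unc93b1, which carries the endosomal receptors to their compartment, was called lower after injury in both genotypes and in the interaction (-0.58, unadjusted p = 0.0489). Cd180, a relative of Tlr4 found on B cells and myeloid cells, was the list's call between genotypes at D7 (6.64 ± 0.947 CPM in Trem2-/- and 10.4 ± 1.99 CPM in WT, limma adjusted p = 0.524).

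Of 19 adaptors and kinases tested, 0 were called higher in either genotype, 6 were called lower in WT and 10 in Trem2-/-. In Trem2-/- Btk, a kinase of B and myeloid cells, changed most (44.0 ± 9.36 to 10.8 ± 0.725 CPM, log2 fold change -1.91, limma adjusted p = 2e-05), before Irak2 (-1.46) and Ticam2 (-1.43), the adaptor that links Tlr4 to Ticam1. After injury in WT, Btk (-1.01) and Irak2 (-0.59) were also called lower. Btk, Irak2 and Ticam2 were called lower in Trem2-/- than WT at D7 (Ticam2 -0.74, Btk -0.73, Irak2 -0.63, with limma adjusted p of 0.475 to 0.605). Of 11 transcription factors 3 were called lower in WT and 8 in Trem2-/-, with 0 higher, led by Irf5 (-1.41) and Irf8 (-1.35) in Trem2-/- and by Irf8 in WT (-0.92). Rel (-0.44) and Irf5 (-0.68) were called lower in Trem2-/- than WT at D7.

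Inhibitors of the pathway were called lower as well, 7 of 12 in WT and 9 in Trem2-/-, with 0 higher. Cd300lf (-1.97), Irak3 (-1.33) and Tnfaip3 (-1.13), the last a deubiquitinase that ends NF-kappaB signaling, led in Trem2-/-. Tnfaip3 (0.52) and Nfkbia (0.44) were called higher in Trem2-/- than WT at D0, with Jun (0.61), although none passed adjustment (limma adjusted p = 1.00). Of 7 interleukin-1 family receptors, most of which also signal through Myd88, 1 was called higher and 3 lower in WT and 2 higher and 4 lower in Trem2-/-. Those called lower in both genotypes included Il1r2, which does not signal through Myd88 (log2 fold change -1.03 in WT and -1.70 in Trem2-/-). Il1rl1, the receptor of interleukin-33, rose from 20.7 ± 5.98 to 167 ± 43.5 CPM in Trem2-/- (log2 fold change 2.95, limma adjusted p = 0.000127), and Il18rap fell by 1.92 on the log2 scale.

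Of 21 target genes tested, 2 were called higher, 8 lower and 11 not called in WT, and 1 higher, 13 lower and 7 not called in Trem2-/-, with Il10 higher in both (1.29 in WT). In Trem2-/- Ccl3 (-1.75), Acod1 (-1.67) and Il1b (-1.66) had the largest changes, Il1b going from 1116 ± 429 to 338 ± 72.1 CPM. No target was called between genotypes at D7 or at D0, and Marcksl1 alone in the interaction (-0.59, limma adjusted p = 0.607). Of the other Toll-like receptors, Tlr5, the flagellin sensor, was 7.94 ± 1.27 CPM in Trem2-/- D0 and 4.03 ± 0.280 CPM in Trem2-/- D7 (log2 fold change -0.82, limma adjusted p = 0.000752) and 5.57 ± 1.16 CPM in WT D7, and it was called lower in the interaction (-0.59) as well as in Trem2-/- against WT at D7 (-0.37). Tlr12 stayed at or below 0.765 CPM in every library and was not tested.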

How the data were processed

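The 16 bulk RNA-seq libraries were grouped by the genotype and injury state in their labels. Per the study's methods, reads (75 cycles) were aligned to mm10 with STAR, counted per gene with featureCounts and normalized with the TMM method of edgeR. Tool versions, annotation, strand setting and the filter on low genes are not given in the sources used here. The deposited signal values are CPM relative to library size multiplied by the TMM factor. All values were whole multiples of 1 read (100%, within 0.1 read), so reads per library (11567073 to 32867818) were recovered.

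Values were compared as log2(CPM + 1) with limma 3.58.1 (lmFit, eBayes with trend, R 4.3.3) for the 13173 genes that reached 1 CPM in 4 or more of the 16 libraries, all 4 groups in 1 fit. The rule for a call (p under 0.05 without adjustment, fold change more than 25% above 1) follows the study. A fold change on this scale understates that of low genes. The members, lists and tests were chosen with earlier results of these data known. Named genes were all members, Trem2, up to 3 called genes per pathway list and comparison (mean of at least 5 CPM) and the 3 genes most like each member by Pearson's r. Alternatives were pseudocounts 0.1 and 5, no filter, quantile normalization, median-of-ratios rescaling, fits of the compared groups alone, replicate number as a block, each library left out (for levels relative to leukocyte genes this was chosen after seeing the data), voom and edgeR 4.0.16 quasi-likelihood on the recovered reads. The fits were run on simulated counts with known changes in the Trem2-/- D7 group. The spread of those counts was not taken from these libraries. That run checks the working of the fits and not their error on these data. Promoters are from RefSeq (GRCm38.p6).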

Additional observations from a re-analysis of the deposited data

Results flagged for a closer look

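The change after injury differed between genotypes for 4 members by the interaction term of the limma fit, at an unadjusted p under 0.05 and not after adjustment. The differences of log2 fold changes, Trem2-/- minus WT, were -1.091 for Tlr13, -0.8352 for Tlr7, -0.8274 for Tlr2 and -0.7608 for Tlr9. For Tlr7 the mean went from 11.9 to 13.8 CPM in WT and from 14.8 to 9.13 CPM in Trem2-/-, and for the other 3 it went down in both. None of the 36 groups of 4 libraries (9 members in 4 groups) held a library apart from the others by Dixon's test.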

How the results depend on the processing

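Of 1116 recomputed log2 fold changes of members, 1028 kept sign and call, 49 lost and 31 gained a call, and 8 changed sign, all by leaving out 1 library from a small difference. The ranges with 1 library left out were -0.2879 to 0.2169 for Tlr8 in WT D7 vs D0, -0.3287 to 0.01334 for Tlr4 in Trem2-/- vs WT at D7, -0.2987 to 0.2115 for Tlr3 and -0.03231 to 0.2744 for Tlr9 at D0, and -0.07561 to 0.4346 for Tlr3 in the interaction. Members called with 1 library left out ranged from 1 to 5 in WT D7 vs D0, 6 to 9 in Trem2-/- D7 vs D0, 1 to 4 in Trem2-/- vs WT at D7 and 1 to 5 in the interaction. In fits of the compared groups alone 1 member was called in WT D7 vs D0 and 4 in Trem2-/- vs WT at D7, where edgeR called 5, and quantile normalization left 2 in the interaction. At an adjusted p under 0.05 there was 1 in WT, and 0 in Trem2-/- vs WT at D7 and in the interaction. Pathway genes called ranged with 1 library left out from 30 to 54 (47 with all) in WT D7 vs D0, 6 to 17 (11) in Trem2-/- vs WT at D7, 2 to 14 (4) at D0 and 9 to 27 (17) in the interaction. In fits of the compared groups alone 24 were called at D7 and 1 at D0, and edgeR called 8 at D0. Relative to the 8 leukocyte genes, a pseudocount of 0.1 left 5 members (8 otherwise) in Trem2-/- D7 vs D0, and 10 macrophage genes as reference turned the direction after injury, with 8 members lower (4 higher otherwise) in WT and 8 lower (8 higher) in Trem2-/-, and gave 1 higher (2) in Trem2-/- vs WT at D7. Leaving out 1 library, an alternative chosen after seeing the data, gave 2 to 6 members in WT, 4 to 7 in Trem2-/- and 0 to 3 in Trem2-/- vs WT at D7 (0 whichever Trem2-/- D7 library was left out), none of them lower. No share of all genes was counted for the macrophage reference. In each case the cause was not tested.

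Replicate numbers are shared by the groups, but in no comparison did every pair of same-numbered libraries have deviations correlated above 0.1. In WT D7 vs D0 all 4 correlations were positive (0.05 to 0.41), and over the comparisons they ran from -0.51 to 0.41, so the numbers were not taken to pair the libraries. With the replicate block, 8 members were called in Trem2-/- D7 vs D0 (9 without it) and 3 in the interaction (4), Tlr7 being the call lost in both. The counts of the other comparisons (2 in WT, 2 between genotypes at D7 and 0 at D0) did not change. Depth limits little here, since every member had at least 46 reads in each library.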
